A study of Mus musculus with 12 samples.

Results

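Complement and coagulation genes were followed in mouse kidney RNA-seq, as a set of 47 genes chosen by name from the complement cascade, the fibrinogen chains, the clotting factors, their inhibitors and receptors, and the plasminogen system. Of these, 46 were analysed and C8b was not analysed here. The set divided into 26 complement and 20 coagulation genes. Of the 46, 41 had enough counts to be tested, among 15322 genes tested in all, and the other 5 (Cfd, Hc, Vsig4, F2 and Plg) are described by level alone.

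The 12 libraries came from kidneys of male mice 8 weeks old on a C57BL/6J background, with 3 libraries in each of 4 groups. All 4 groups carried altered Wwp2 alleles, Wwp2 being a HECT-type ubiquitin ligase. WT mice had floxed Wwp2 without the knockout, and PTCKO mice had a conditional knockout of Wwp2 in proximal tubule. Each genotype had a sham group and a group after UIR, a term kept as in the labels. Neither the driver of the Cre recombinase nor the interval between UIR and tissue collection is given in the sources used. No label links a library to its own mouse, so the p-values reflect only variation among libraries, which may be technical.

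Library totals ran from about 15495200 to 19645700 expected counts and replicates correlated at 0.980 to 0.986. Wwp2 itself was at 15.2, 15.7 and 17.1 across WT sham, 15.6, 16.1 and 17.6 across PTCKO sham, 17.6, 19.1 and 17.9 across WT UIR and 22.3, 19.3 and 20.5 across PTCKO UIR (FPKM, fragments per kilobase of transcript and per library size). The libraries labelled PTCKO did not have lower Wwp2 (log2 fold change -0.03, SE 0.0733, edgeR adjusted p = 0.823 after sham, and log2 fold change 0.25, SE 0.0728, edgeR adjusted p = 0.0370 after UIR), so every direction between genotypes below rests on the labels. Levels are FPKM, listed in the order of libraries 1, 2 and 3. Fold changes come from edgeR on counts with TMM scaling, which corrects for the makeup of a library and which FPKM does not carry. The mean TMM factor was 0.773 and 0.846 for sham (WT, then PTCKO) and 1.27 and 1.21 for UIR, so an FPKM ratio of UIR to sham is larger than the edgeR fold change of the same gene. Calls were made below an adjusted p of 0.05.

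Complement is a chain of plasma proteases and binding proteins that starts on immune complexes (classical pathway), on sugars (lectin pathway) or on surfaces directly (alternative pathway), meets at the cleavage of C3 and ends in a membrane pore made of the terminal components. Coagulation is another protease chain, which ends when thrombin cuts fibrinogen into fibrin, and the plasminogen system dissolves the clot again. The liver makes most of both sets of plasma proteins, and in kidney tubule cells, macrophages and fibroblasts can also transcribe members of them.

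The fibrinogen chain genes lie side by side on chromosome 3, with Fgg at chr3:83007724-83015056, Fga at chr3:83026153-83033627 and Fgb at chr3:83042246-83049863 (GRCm38.p6). Fgg and Fga are 11097 bases apart and Fga and Fgb 8619. Their promoters are shown because the 3 chains moved apart in the data below, and those of C3, C8a and Hrg because these genes had some of the largest changes with UIR. Each line runs from 250 bases before to 50 bases after the start that the RefSeq promoter entry uses, on GRCm38.p6. For C8a that start lies inside the annotated gene, not at its outer end, and positions below are counted from it. Capitals mark matches to 4 motifs, searched on both strands: the HNF1 half-site GTTAAT, the C/EBP motif TTGCNNAA, the interleukin-6 response element CTGGGAA and the TATA box TATAAA.
Fga (chr3:83025903-83026202, plus strand): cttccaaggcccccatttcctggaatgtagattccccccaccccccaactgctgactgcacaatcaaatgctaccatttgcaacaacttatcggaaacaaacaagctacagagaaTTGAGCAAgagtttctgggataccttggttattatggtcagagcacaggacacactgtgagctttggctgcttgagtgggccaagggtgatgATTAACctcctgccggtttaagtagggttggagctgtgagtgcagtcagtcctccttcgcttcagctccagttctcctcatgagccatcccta
Fgb (chr3:83049814-83050113, minus strand): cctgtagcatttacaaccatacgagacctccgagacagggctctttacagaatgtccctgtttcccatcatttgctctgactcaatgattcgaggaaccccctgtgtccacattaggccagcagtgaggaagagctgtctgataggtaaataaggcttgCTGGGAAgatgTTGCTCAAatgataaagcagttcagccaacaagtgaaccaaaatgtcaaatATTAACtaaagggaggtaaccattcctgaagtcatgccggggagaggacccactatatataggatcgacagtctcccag
Fgg (chr3:83007474-83007773, plus strand): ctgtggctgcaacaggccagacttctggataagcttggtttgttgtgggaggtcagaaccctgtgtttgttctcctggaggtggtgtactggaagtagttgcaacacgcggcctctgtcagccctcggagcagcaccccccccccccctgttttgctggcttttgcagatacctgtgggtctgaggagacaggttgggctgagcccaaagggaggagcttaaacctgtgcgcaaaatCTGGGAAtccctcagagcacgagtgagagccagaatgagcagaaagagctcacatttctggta
C3 (chr17:57228087-57228386, minus strand): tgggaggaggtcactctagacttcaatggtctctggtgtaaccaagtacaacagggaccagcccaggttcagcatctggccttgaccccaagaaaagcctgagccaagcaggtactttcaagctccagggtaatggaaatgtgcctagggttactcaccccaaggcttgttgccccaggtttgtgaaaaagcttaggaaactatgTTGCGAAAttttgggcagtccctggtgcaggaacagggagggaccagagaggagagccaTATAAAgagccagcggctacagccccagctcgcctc
C8a (chr4:104876349-104876648, minus strand): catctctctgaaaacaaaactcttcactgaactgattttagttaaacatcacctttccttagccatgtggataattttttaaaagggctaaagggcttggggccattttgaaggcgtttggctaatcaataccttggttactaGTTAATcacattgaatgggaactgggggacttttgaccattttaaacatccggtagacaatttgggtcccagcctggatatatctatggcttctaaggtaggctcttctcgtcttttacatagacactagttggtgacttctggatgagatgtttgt
Hrg (chr16:22950822-22951121, plus strand): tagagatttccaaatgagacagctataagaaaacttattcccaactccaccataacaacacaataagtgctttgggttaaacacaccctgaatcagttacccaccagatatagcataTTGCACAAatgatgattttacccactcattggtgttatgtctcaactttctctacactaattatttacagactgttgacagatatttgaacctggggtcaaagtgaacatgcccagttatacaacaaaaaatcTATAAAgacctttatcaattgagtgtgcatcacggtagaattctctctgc

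With the base before the start as -1, Fga had a C/EBP match beginning at -135 and an HNF1 match at -43. Fgb had an interleukin-6 element at -91, a C/EBP match at -80 and an HNF1 match at -29. Fgg had a single match, an interleukin-6 element at -13. C3 had a C/EBP match at -45 and a TATA match at 15 bases into the gene, C8a an HNF1 match at -107, and Hrg a C/EBP match at -133 and a TATA match at the start. Of the 46 members, 35 had a promoter entry. GTTAAT was found for 9 of the 35 and in 7.1% of all 32851 promoters of this length. TTGCNNAA was found for 9 members and in 10.8% of all promoters, CTGGGAA for 7 and in 11.1%, and TATAAA for 7 and in 13.6%. The member figures count genes, and the shares count promoter entries. The 35 members had 40 entries, of which 9, 9, 7 and 7 held the motifs in the same order. A match is a run of letters in this window and shows neither binding nor use.

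The first comparison asked what UIR did in each genotype. In WT, 29 of the 41 tested members rose and 11 fell. In PTCKO, 30 rose and 10 fell. UIR moved most of the transcriptome: edgeR called 42.1% of all genes higher and 36.4% lower in WT (78.6% either way), and 39% higher and 34.8% lower in PTCKO (73.8% either way). The members' share of calls (40 of 41 in both genotypes) is to be read against those backgrounds. The median log2 fold change of the members was 2.39 in WT and 2.38 in PTCKO, against 0.10 and 0.06 for all genes tested. The members were chosen with earlier results of these data known, so this contrast with all genes is not an independent test. Without scaling factors the median of all genes was 0.82 in WT and 0.57 in PTCKO, and 78.7% and 77.2% of all calls were higher instead of 53.6% and 52.8%. Both comparisons are given side by side, and no library is shared between them.

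**Figure D1:**
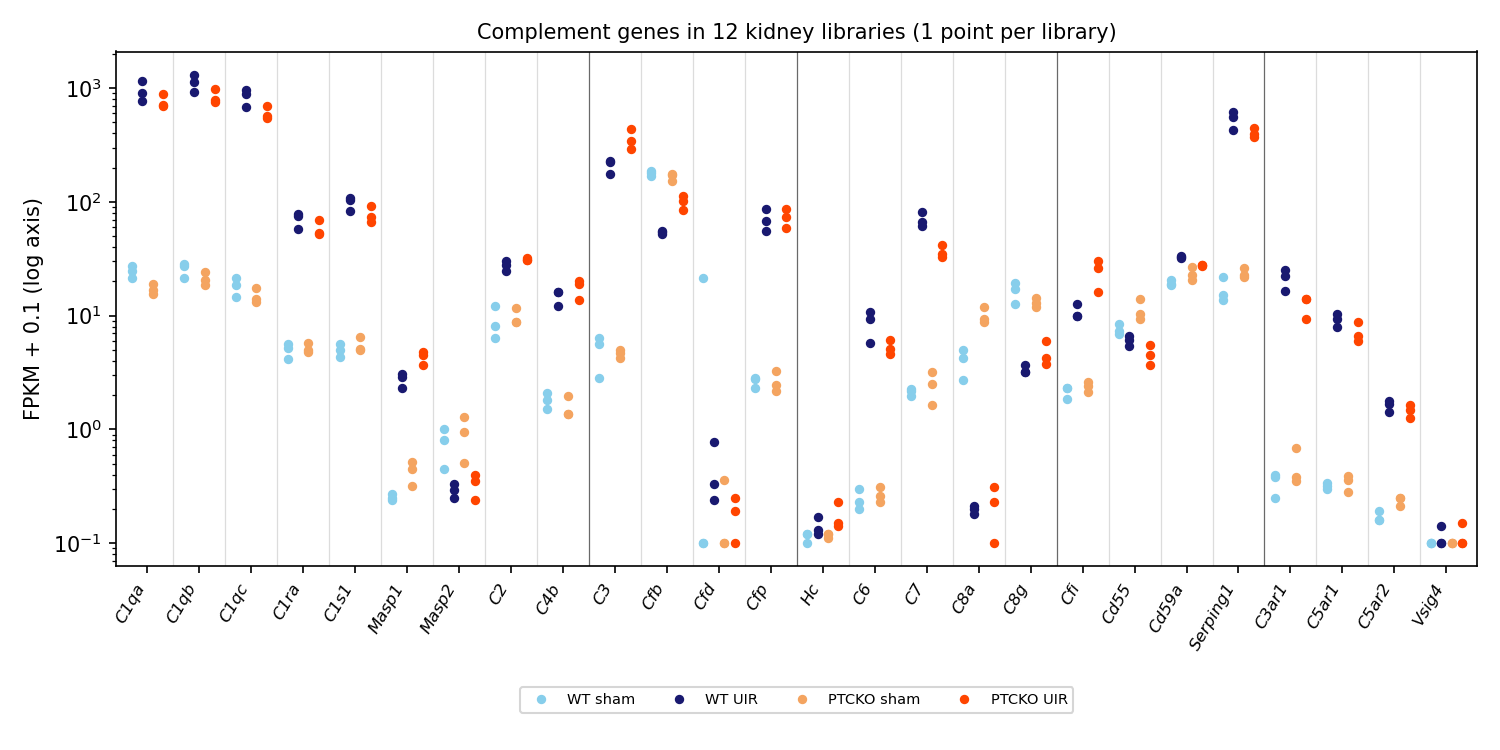
FPKM plus 0.1, on a log axis, of the 26 complement genes in each of the 12 libraries, 1 point per library, coloured by group and parted by role with vertical lines. Points of the C1q genes, C3, Serping1 and the receptors C3ar1, C5ar1 and C5ar2 sit far higher after UIR, those of C8a far lower, and a single WT sham point stands out for Cfd.

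The genes that start the cascade rose together. Of the 9 initiation genes, 8 rose and 1 (Masp2) fell in each genotype. C1qa, C1qb and C1qc encode the chains of C1q, which recognises immune complexes, and lie within a short stretch of chromosome 4 with gaps of 2980 and 3601 bases. C1qb was at 21.2, 27.0 and 28.2 across WT sham, 18.5, 24.2 and 20.3 across PTCKO sham, 1134, 917 and 1308 across WT UIR and 977, 782 and 755 across PTCKO UIR. Its level was lower in every sham library than in any UIR library. This was a 26.9-fold rise in WT (log2 fold change 4.75, SE 0.188, edgeR adjusted p = 1.89e-10) and a 27.9-fold rise in PTCKO (log2 fold change 4.80, SE 0.190, edgeR adjusted p = 3.28e-10). The 3 chain genes kept nearly the same proportions throughout, with C1qa at 0.757 to 1.01 and C1qc at 0.688 to 0.776 of the C1qb level over all 12 libraries.

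C1ra and C1s1, the proteases that C1q activates, rose 8.84-fold and 12.4-fold in WT and 8.01-fold and 10.0-fold in PTCKO. C4b, the next substrate, was at 1.73, 1.99 and 1.40 across WT sham, 1.27, 1.27 and 1.85 across PTCKO sham, 16.1, 11.9 and 15.9 across WT UIR and 20.2, 13.6 and 18.9 across PTCKO UIR and rose 5.25-fold in WT and 8.45-fold in PTCKO. C2, its partner in the C3-cleaving enzyme, rose 1.91-fold and 2.25-fold. C1ra, C1s1, C4b and Cd59a have related genes (C1rb, C1s2, C4a and Cd59b), and reads that match both are shared by estimate. How alike these pairs are was not measured. Expected counts of further members were also not whole numbers, so reads of theirs may be shared too. Among them were Cd55, C3ar1 and F2r (327.86, 10.95 and 684.44 in WT sham 1). C2, Masp2 and Masp1 overlap other genes (Zbtb12, Tardbp and Rtp4) on the opposite strand, and whether counting used strand is not given, so their values are uncertain. C1s1, C7, C8a, Hc, Cd55, Fgg, F5, F13a1 and Plg also overlap annotated genes on the opposite strand, and C2 and Cfb share most of their length with another annotated gene, Gm20547, on their own strand, so the same limit holds for them. Masp1, a protease of the lectin pathway, was at 0.15, 0.17 and 0.14 across WT sham, 0.42, 0.35 and 0.22 across PTCKO sham, 2.77, 2.95 and 2.20 across WT UIR and 4.66, 3.56 and 4.38 across PTCKO UIR and was higher in all UIR libraries than in all sham libraries (log2 fold change 3.41, SE 0.252, edgeR adjusted p = 2.95e-08 in WT). Masp2, the lectin protease that cuts C4 and C2, fell from low levels (log2 fold change -1.94 in WT and -1.75 in PTCKO).

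C3, the central component, rose while its partner in the alternative pathway fell. C3 (chr17:57203967-57228136) was at 5.49, 6.30 and 2.71 across WT sham, 4.56, 4.87 and 4.13 across PTCKO sham, 227, 178 and 226 across WT UIR and 439, 292 and 341 across PTCKO UIR. The sham groups overlapped each other and lay far below both UIR groups. C3 rose 27.7-fold in WT (log2 fold change 4.79, SE 0.281, edgeR adjusted p = 3.05e-09) and 51.2-fold in PTCKO (log2 fold change 5.68, SE 0.292, edgeR adjusted p = 1.85e-09). Cfb, factor B, which binds C3b to form the alternative C3-cleaving enzyme, was at 186, 169 and 181 across WT sham, 172, 152 and 176 across PTCKO sham, 53.8, 55.3 and 51.7 across WT UIR and 102, 84.5 and 114 across PTCKO UIR. Every UIR library was below every sham library, and the fall was 5.50-fold in WT (log2 fold change -2.46, SE 0.129, edgeR adjusted p = 1.12e-09) and 2.38-fold in PTCKO (log2 fold change -1.25, SE 0.124, edgeR adjusted p = 7.64e-07). The C3 level went from 0.0150 to 0.0372 of the Cfb level in sham libraries to 3.00 to 4.37 times it after UIR. C2 and Cfb, related genes only 88 bases apart on chromosome 17, moved in opposite directions in both genotypes. Cfp, properdin, which stabilises the alternative enzyme, rose 16.9-fold in WT and 19.9-fold in PTCKO.

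Cfd, factor D, the protease that cuts factor B and that fat cells secrete, was at 21.3 FPKM in WT sham 2 and at 0.67 or below in the other 11 libraries. The adipocyte markers Adipoq (4.02), Cidec (1.77), Plin1 (0.30) and Lep (0.08) were highest in the same library, where no other library passed 0.12. Fabp4, the other marker of that list, was at 43.5 to 116 over all libraries and at 91.4 in WT sham 2. Their part in the Cfd value was not tested.

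The terminal components split. C6 and C7, which lie 183705 bases apart on chromosome 15, rose, and the C8 subunit genes fell. C7 was at 1.87, 2.08 and 2.15 across WT sham, 3.12, 2.39 and 1.54 across PTCKO sham, 61.4, 67.0 and 82.2 across WT UIR and 32.4, 41.9 and 34.5 across PTCKO UIR. All UIR libraries were above all sham libraries, and the rise was 21.0-fold in WT (log2 fold change 4.39, SE 0.206, edgeR adjusted p = 4.92e-10) and 10.8-fold in PTCKO (log2 fold change 3.43, SE 0.201, edgeR adjusted p = 5.27e-09). C6 was at 0.21 or below in every sham library and rose 35.9-fold in WT and 21.4-fold in PTCKO. C8a (chr4:104815679-104876487), whose product is the alpha chain of C8, was at 2.62, 4.16 and 4.90 across WT sham, 9.16, 11.8 and 8.62 across PTCKO sham, 0.10, 0.11 and 0.08 across WT UIR and 0, 0.21 and 0.13 across PTCKO UIR. It was near 0 in all 6 UIR libraries, and the fitted log2 fold change was -5.96 (SE 0.416, edgeR adjusted p = 1.67e-08) in WT and -6.81 (edgeR adjusted p = 4.43e-09) in PTCKO, where it became -7.56 without PTCKO UIR 2. C8g, the gamma chain of C8, was at 17.1, 12.6 and 19.2 across WT sham, 12.9, 14.3 and 11.8 across PTCKO sham, 3.10, 3.10 and 3.57 across WT UIR and 4.18, 3.65 and 5.91 across PTCKO UIR and fell 9.02-fold in WT and 4.30-fold in PTCKO. C8g overlaps Fbxw5 on the opposite strand by 970 bases, which leaves its values uncertain. Hc, the mouse gene of C5, was at 0.13 or below in every library.

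Of the 4 regulators, Cfi and Serping1 rose in both genotypes. Serping1, the C1 inhibitor, was at 15.1, 21.6 and 13.6 across WT sham, 21.6, 25.9 and 22.7 across PTCKO sham, 563, 433 and 618 across WT UIR and 398, 451 and 372 across PTCKO UIR, with no overlap between sham and UIR. It rose 19.7-fold in WT (log2 fold change 4.30, SE 0.183, edgeR adjusted p = 2.59e-10) and 12.2-fold in PTCKO (log2 fold change 3.60, SE 0.177, edgeR adjusted p = 1.31e-09). Cfi, factor I, which cuts C3b and C4b, rose 3.18-fold in WT and 7.47-fold in PTCKO, with its values given below. Cd55, decay-accelerating factor, which takes apart the C3-cleaving enzymes, was at 7.18, 8.26 and 6.76 across WT sham, 10.2, 14.0 and 9.18 across PTCKO sham, 6.52, 5.33 and 6.06 across WT UIR and 4.41, 5.47 and 3.60 across PTCKO UIR and fell in both (log2 fold change -0.92, SE 0.139, edgeR adjusted p = 3.82e-05 in WT, and log2 fold change -1.76, SE 0.141, edgeR adjusted p = 9.83e-08 in PTCKO). Without scaling factors the fall of Cd55 in WT was no longer called. Cd59a, which blocks the membrane pore, did not pass in WT (log2 fold change 0.01, edgeR adjusted p = 0.926) and was called lower in PTCKO (-0.33). That direction rests on scaling: without scaling factors the values were 0.72 in WT and 0.19 in PTCKO.

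All 3 tested receptors rose. C3ar1, the receptor of the C3a fragment, was at 0.15, 0.30 and 0.28 across WT sham, 0.28, 0.58 and 0.25 across PTCKO sham, 22.2, 16.4 and 25.2 across WT UIR and 13.9, 14.0 and 9.32 across PTCKO UIR, and the sham and UIR libraries did not overlap. The rise was 53.1-fold in WT (log2 fold change 5.73, SE 0.298, edgeR adjusted p = 1.06e-09) and 23.3-fold in PTCKO (log2 fold change 4.54, SE 0.283, edgeR adjusted p = 9.23e-09). C5ar1, the receptor of C5a, rose 25.1-fold and 20.3-fold, and C5ar2, another receptor of C5a, 14.8-fold and 7.45-fold. These folds rest on few sham counts, 7 to 11 per library for C5ar1 and 3.12 to 8.37 for C5ar2. The UIR effect on C5ar2 was not called different between the genotypes (log2 difference -0.99, SE 0.431, edgeR adjusted p = 0.177). Vsig4, a complement receptor of resident macrophages, was at 0.05 or below in every library. The 8 macrophage markers rose in both genotypes, with a summed level of 27.5 to 49.6 FPKM in the sham libraries and 1847 to 4797 after UIR. The 8 fibroblast markers rose too, from 36.4 to 55.8 up to 675 to 1073, and the 8 proximal tubule markers fell, from 4636 to 6344 down to 309.5 to 1596. Their part in the complement values was not tested, and in whole tissue fewer cells of a type and less RNA per cell cannot be told apart.

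**Figure D2:**
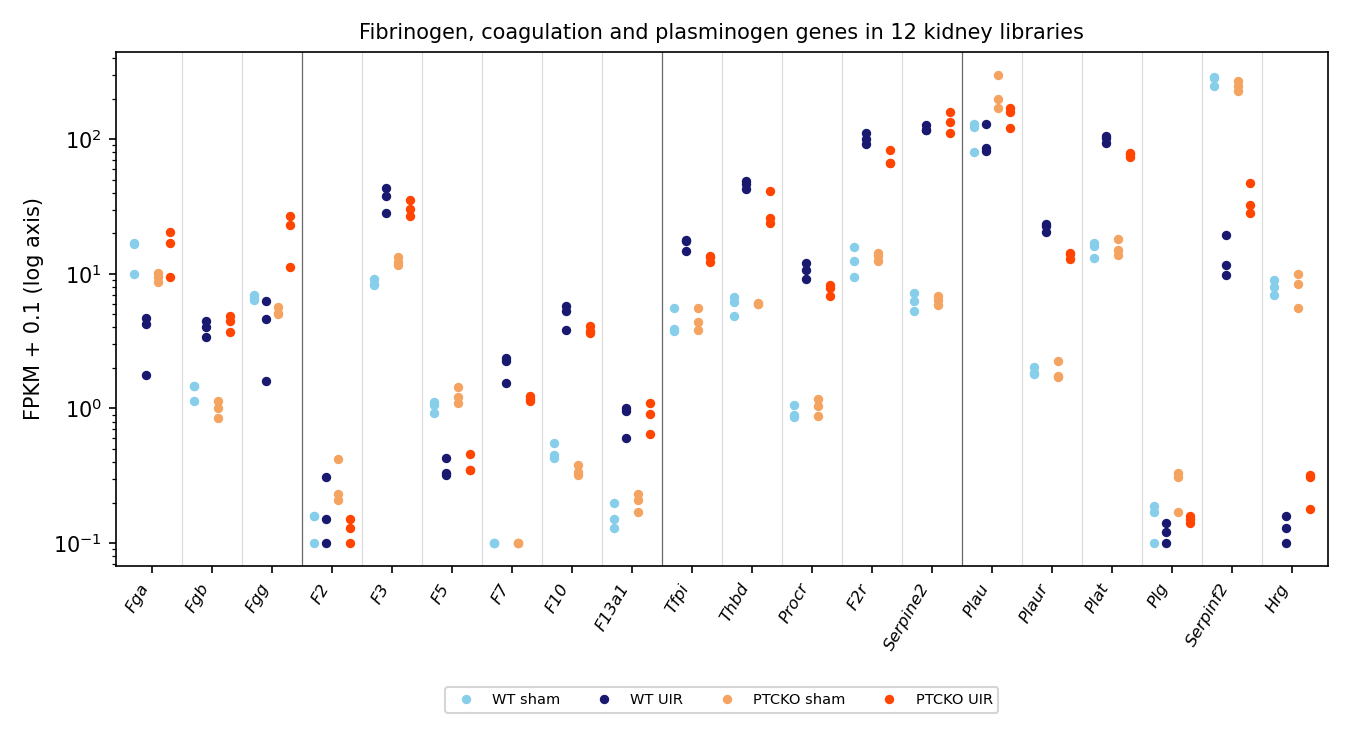
FPKM plus 0.1, on a log axis, of the 20 fibrinogen, coagulation and plasminogen system genes in each of the 12 libraries, 1 point per library, coloured by group and parted by role with vertical lines. F7 sits at 0 in all sham libraries, Hrg and Serpinf2 drop with UIR, and Plaur, Serpine2 and Procr rise.

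The fibrinogen chain genes did not move together, and the UIR effect on Fga and Fgg was called different between WT and PTCKO. For Fgb that difference was not called (log2 difference 0.81, SE 0.284, edgeR adjusted p = 0.0568). Each fibrinogen molecule is built from paired alpha, beta and gamma chains, the products of Fga, Fgb and Fgg. Fga was at 16.9, 16.5 and 9.82 across WT sham, 9.34, 10.1 and 8.54 across PTCKO sham, 1.66, 4.15 and 4.58 across WT UIR and 16.7, 9.39 and 20.5 across PTCKO UIR. All WT UIR libraries lay below all WT sham libraries, and in PTCKO the sham and UIR libraries overlapped. The change was 6.96-fold downward in WT (log2 fold change -2.80, SE 0.357, edgeR adjusted p = 7.65e-06) and was not called in PTCKO (log2 fold change 0.31, SE 0.328, edgeR adjusted p = 0.408). Without scaling factors the PTCKO value was 0.81 and was called higher.

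Fgg was at 6.84, 6.56 and 6.28 across WT sham, 4.90, 4.98 and 5.57 across PTCKO sham, 1.5, 4.51 and 6.24 across WT UIR and 22.9, 11.1 and 27.0 across PTCKO UIR. The WT UIR libraries lay below the WT sham libraries, the nearest at 6.24 against 6.28 FPKM, and every PTCKO UIR library lay above every other library. Fgg fell 2.65-fold in WT (log2 fold change -1.40, SE 0.404, edgeR adjusted p = 0.00611), a call lost without scaling factors, and rose 2.77-fold in PTCKO (log2 fold change 1.47, SE 0.383, edgeR adjusted p = 0.00348). Fgb was at 1.36, 1.36 and 1.03 across WT sham, 0.75, 1.03 and 0.91 across PTCKO sham, 3.29, 4.40 and 3.92 across WT UIR and 4.40, 3.63 and 4.76 across PTCKO UIR. The UIR libraries of both genotypes were above all sham libraries and overlapped each other. Fgb rose 1.89-fold in WT (log2 fold change 0.92, SE 0.194, edgeR adjusted p = 6.82e-04) and 3.32-fold in PTCKO (log2 fold change 1.73, SE 0.204, edgeR adjusted p = 4.21e-06).

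The chains therefore changed their proportions. Fga was 9.38 to 12.5 times Fgb in the 6 sham libraries, 0.505 to 1.17 times in WT UIR and 2.59 to 4.30 times in PTCKO UIR. Fgg was 4.82 to 6.53 times Fgb in sham, 0.456 to 1.59 times in WT UIR and 3.06 to 5.68 times in PTCKO UIR. The groups did not overlap in the Fga ratio, apart from the sham groups with each other, whereas in the Fgg ratio the PTCKO UIR libraries overlapped the sham libraries. Alb, the albumin gene of the hepatocyte list, was at 4.45 to 7.66 in the sham libraries and 0.20 to 0.37 after UIR, and Ahsg was listed at 0 in every sham library. Over the hepatocyte list, 6 of 8 tested markers fell and 1 (Serpina1b) rose in each genotype, with a summed level of 242 to 473 FPKM in sham and 89.2 to 161 after UIR. The part of liver-type transcripts in the fibrinogen values was not tested.

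**Figure D3:**
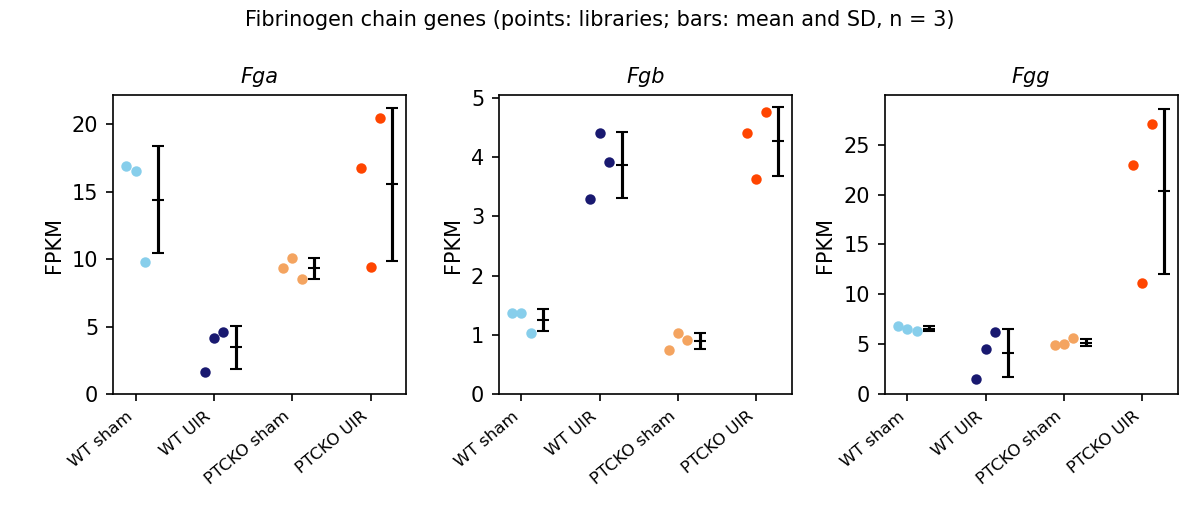
FPKM of Fga, Fgb and Fgg by group, 1 point per library, with the mean and SD of 3 libraries as bars and separate vertical scales from 0. Fga and Fgg are higher in PTCKO UIR than in WT UIR without overlap, while Fgb overlaps between those groups.

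Among the other clotting factors, F3, F7, F10 and F13a1 rose and F5 fell in both genotypes. F7, factor VII, which starts coagulation together with tissue factor, had 0 counts in all 6 sham libraries and was at 2.14, 1.44 and 2.28 across WT UIR and 1.04, 1.13 and 1.08 across PTCKO UIR. Against a floor of 3 counts per library this was at least 12.0-fold higher in WT and at least 7.25-fold higher in PTCKO. F3, tissue factor, was at 8.12, 9.10 and 8.26 across WT sham, 13.2, 12.1 and 11.6 across PTCKO sham, 38.1, 43.7 and 28.4 across WT UIR and 30.3, 35.3 and 27.1 across PTCKO UIR. All UIR libraries exceeded all sham libraries, and F3 rose 2.64-fold in WT (log2 fold change 1.40, SE 0.135, edgeR adjusted p = 4.52e-07) and 1.75-fold in PTCKO (log2 fold change 0.81, SE 0.132, edgeR adjusted p = 9.16e-05). F10, factor X, which neighbours F7 at 1499 bases, rose 8.08-fold and 11.0-fold. F13a1, the chain of factor XIII that cross-links fibrin, rose 7.87-fold and 5.21-fold and stayed at 1.00 FPKM or below. F5, factor V, fell 5.82-fold and 5.69-fold. F2, prothrombin, was at 0.32 or below in every library.

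The anticoagulants and thrombin receptors all rose, 5 of 5 in each genotype. Serpine2, protease nexin 1, an inhibitor of thrombin, was at 5.17, 6.20 and 7.09 across WT sham, 6.35, 6.78 and 5.75 across PTCKO sham, 117, 117 and 128 across WT UIR and 135, 111 and 160.4 across PTCKO UIR and rose 12.0-fold in WT (log2 fold change 3.58, SE 0.166, edgeR adjusted p = 4.43e-10) and 15.1-fold in PTCKO (log2 fold change 3.92, SE 0.168, edgeR adjusted p = 4.84e-10). Its sham libraries lay far below its UIR libraries, and the UIR groups overlapped each other. Thbd (thrombomodulin) and Procr (the endothelial protein C receptor), which together turn thrombin towards activating protein C, rose 4.82-fold and 7.59-fold in WT and 3.58-fold and 5.62-fold in PTCKO. F2r, the thrombin receptor PAR1, rose 4.97-fold and 3.78-fold. Tfpi, which inhibits the tissue factor pathway, rose 2.79-fold and 2.30-fold.

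In the plasminogen system Plat and Plaur rose in both genotypes, and Serpinf2, Hrg and Plau fell. Serpinf2, alpha-2-antiplasmin, the main inhibitor of plasmin, was at 288, 291 and 250.03 across WT sham, 249, 229.7 and 269.5 across PTCKO sham, 9.74, 19.4 and 11.6 across WT UIR and 28.4, 32.4 and 47.6 across PTCKO UIR. The UIR libraries were all below the sham libraries, and the fall was 33.2-fold in WT (log2 fold change -5.05, SE 0.271, edgeR adjusted p = 1.39e-09) and 9.82-fold in PTCKO (log2 fold change -3.30, SE 0.249, edgeR adjusted p = 5.21e-08). Hrg, histidine-rich glycoprotein, which binds plasminogen and heparin, was at 6.82, 8.88 and 7.93 across WT sham, 9.95, 5.49 and 8.37 across PTCKO sham, 0.03, 0.06 and 0 across WT UIR and 0.08, 0.21 and 0.22 across PTCKO UIR. It was near 0 in all UIR libraries, with a fitted log2 fold change of -8.45 in WT (edgeR adjusted p = 8.05e-10) and -5.99 in PTCKO (edgeR adjusted p = 3.85e-09), and of -9.22 in WT without WT UIR 2.

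Plau, urokinase, was at 123, 80.3 and 130.5 across WT sham, 170.4, 301 and 199.7 across PTCKO sham, 81.4, 131 and 86.3 across WT UIR and 171, 122 and 159.9 across PTCKO UIR, and the sham and UIR libraries overlapped in FPKM in both genotypes. It was called lower with UIR (log2 fold change -0.88, SE 0.253, edgeR adjusted p = 0.00611 in WT, and log2 fold change -1.07, SE 0.253, edgeR adjusted p = 0.00180 in PTCKO), a call lost in WT without scaling factors (-0.16), and in both genotypes with limma on FPKM (-0.16 in WT and -0.54 in PTCKO) and on TPM (0.011 and -0.52). Plaur, the urokinase receptor, was at 1.71, 1.75 and 1.94 across WT sham, 1.63, 2.16 and 1.60 across PTCKO sham, 22.7, 20.2 and 23.4 across WT UIR and 14.1, 14.0 and 12.7 across PTCKO UIR, with all UIR libraries above all sham libraries. It rose 7.49-fold in WT and 5.19-fold in PTCKO, and Plat, tissue plasminogen activator, rose 4.02-fold and 3.47-fold. Plg, plasminogen itself, was at 0.23 or below in every library.

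**Figure D4:**
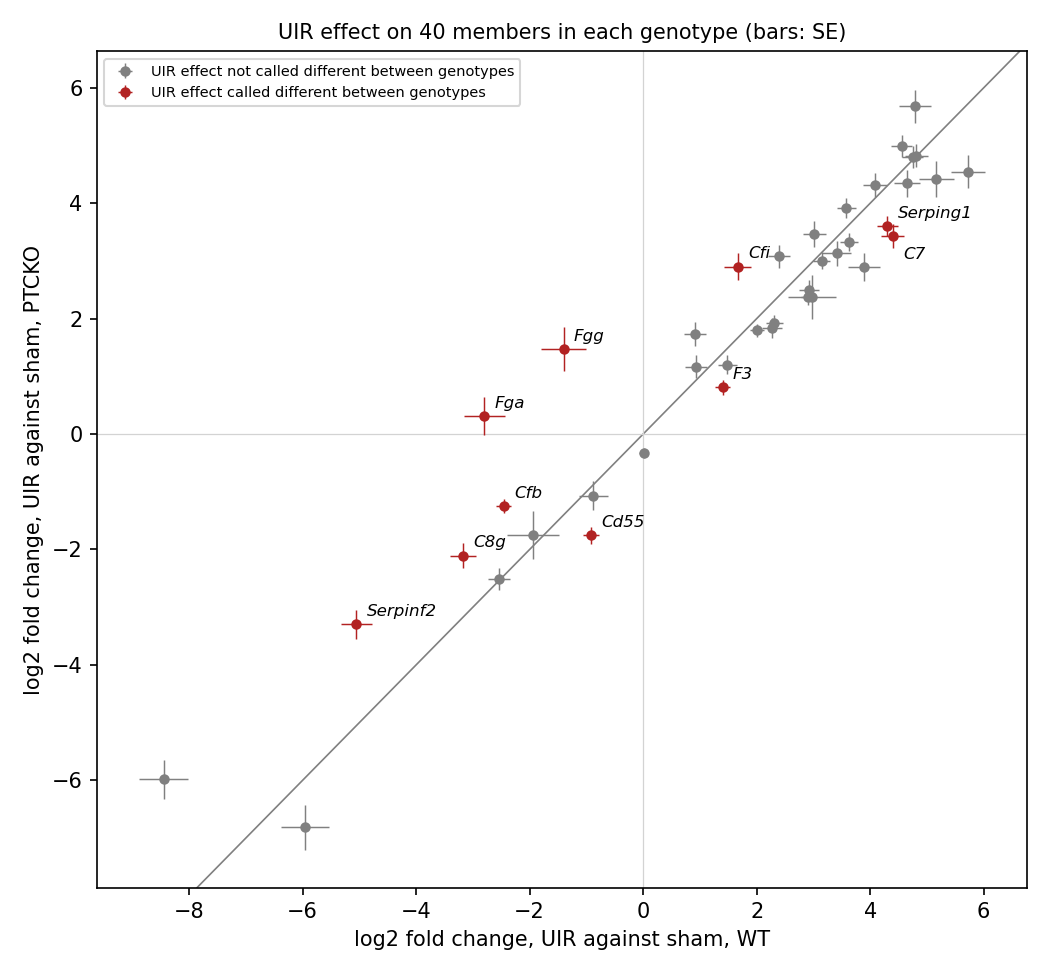
Log2 fold change with UIR in WT (horizontal) against PTCKO (vertical) for 40 tested members, F7 left out because its sham libraries hold 0 counts. Points are edgeR estimates with SE bars, the diagonal marks equal change, and the 10 members whose UIR effect was called different between genotypes are named in red, with Fga and Fgg furthest from the diagonal.

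The next comparison asked whether the genotypes differed after sham surgery, with the sham libraries already used above. Few members did: 2 of 41 were called higher in PTCKO and 1 lower, against 5.23% higher and 5.5% lower (10.7% either way) of all genes. Those were Plau and C8a, which were higher, and C1qa, which was lower. C8a had 2.62, 4.16 and 4.90 FPKM across WT sham and 9.16, 11.8 and 8.62 across PTCKO sham, without overlap (log2 fold change 1.24, SE 0.255, edgeR adjusted p = 0.0154). Its call was lost without PTCKO sham 2 (1.11). Plau had 123, 80.3 and 130.5 across WT sham and 170.4, 301 and 199.7 across PTCKO sham, also without overlap (log2 fold change 0.87, SE 0.253, edgeR adjusted p = 0.0464). C1qa had 21.4, 24.5 and 27.2 across WT sham and 16.8, 18.7 and 15.4 across PTCKO sham, again without overlap (log2 fold change -0.65, SE 0.173, edgeR adjusted p = 0.0346).

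These sham calls were fragile. Plau lost its call when any single library was left out other than WT UIR 2 or PTCKO UIR 2 (log2 0.60 to 1.02). C1qa lost its call without WT sham 2 or 3, WT UIR 1, or any single PTCKO sham library (log2 -0.72 to -0.54). Its fellow chain genes C1qb and C1qc were not called (log2 -0.41 and -0.43, edgeR adjusted p = 0.132 and 0.140). The split of higher to lower calls among members was 6 to 0 without scaling factors, and over all genes it went from 802 higher and 843 lower to 1783 and 329. The summed macrophage markers overlapped between the sham groups, at 27.5 to 38.2 FPKM in WT and 32.8 to 49.6 in PTCKO. The summed proximal tubule markers did not overlap, at 6221 to 6344 in WT sham and 4636 to 5869 in PTCKO sham. In PTCKO sham 1 of the 8 macrophage markers was called higher and 1 of the 8 proximal tubule markers lower. Their part in the sham calls was not tested.

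After UIR, 12 members differed between the genotypes, 7 higher and 5 lower in PTCKO. Of all genes, 9.3% were higher and 4.5% lower (13.8% either way). The median over members was -0.18, against 0.0049 over all genes. The split among members was 6 higher to 8 lower without scaling factors and 6 to 12 on TPM, and over all genes it went from 1425 higher and 690 lower to 1103 and 864 without scaling factors. Higher were Fga, Fgg, Serpinf2, Cfi, Cfb, C3 and Masp1, and lower were C7, C3ar1, C6, Plaur and Thbd.

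Fga and Fgg had the largest called differences. Fga was at 3.46 ± 1.58 FPKM after UIR in WT and 15.5 ± 5.65 in PTCKO (SD, n = 3), a 4.87-fold difference (log2 fold change 2.29, SE 0.353, edgeR adjusted p = 0.00162). Fgg was at 4.08 ± 2.40 and 20.4 ± 8.27 (SD, n = 3), a 5.29-fold difference (log2 fold change 2.40, SE 0.391, edgeR adjusted p = 0.00211). The highest WT UIR library was below the lowest PTCKO UIR library for both genes. Fgb did not pass (log2 fold change 0.21, SE 0.173, edgeR adjusted p = 0.456). Serpinf2 was at 9.74, 19.4 and 11.6 across WT UIR and 28.4, 32.4 and 47.6 across PTCKO UIR, 2.80-fold higher (log2 fold change 1.48, SE 0.239, edgeR adjusted p = 0.00197).

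Cfi was at 2.22, 1.74 and 2.19 across WT sham, 2.02, 2.49 and 2.33 across PTCKO sham, 9.84, 12.5 and 9.77 across WT UIR and 26.0, 16.1 and 30.3 across PTCKO UIR. All PTCKO UIR libraries were above all WT UIR libraries, a 2.37-fold difference (log2 fold change 1.25, SE 0.202, edgeR adjusted p = 0.00207). Cfb, which had fallen with UIR, was 1.96-fold higher in PTCKO UIR than in WT UIR (log2 fold change 0.97, SE 0.123, edgeR adjusted p = 6.89e-04), without overlap. C3 was 1.76-fold higher (log2 fold change 0.81, SE 0.235, edgeR adjusted p = 0.0366) and Masp1 1.67-fold higher (log2 fold change 0.74, SE 0.174, edgeR adjusted p = 0.0142), both without overlap in FPKM. Masp1 had a larger estimate after sham, which was not called (log2 fold change 1.01, SE 0.315, edgeR adjusted p = 0.0568). Its UIR effect was not called different between the genotypes (log2 difference -0.27, SE 0.357, edgeR adjusted p = 0.612). Hrg had an estimate as large as that of Fgg but on a far lower level, and was not called (log2 fold change 2.35, SE 0.822, edgeR adjusted p = 0.0772).

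C7 was 1.85-fold lower in PTCKO UIR (log2 fold change -0.89, SE 0.167, edgeR adjusted p = 0.00415), and its groups did not overlap. C3ar1 was 1.64-fold lower (log2 fold change -0.72, SE 0.199, edgeR adjusted p = 0.0302), Plaur 1.55-fold lower (log2 fold change -0.63, SE 0.110, edgeR adjusted p = 0.00277) and Thbd 1.45-fold lower (log2 fold change -0.53, SE 0.157, edgeR adjusted p = 0.0387), each without overlap in FPKM. C6 was 1.58-fold lower (log2 fold change -0.66, SE 0.198, edgeR adjusted p = 0.0421), with overlapping libraries. The proteases and chains that begin the classical pathway were not called: C1qa, C1qb, C1qc, C1ra, C1s1, C2 and C4b ranged from -0.42 to 0.34.

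The calls of Fga, Fgg, Serpinf2, Cfi, Cfb, C7 and Plaur held when any 1 library was left out. C3 lost its call without WT sham 1, PTCKO sham 1, any WT UIR library, or PTCKO UIR 1 or 3 (log2 0.68 to 0.89), and also without scaling factors (0.75) and on TPM (0.70). Masp1 lost it without WT UIR 3, PTCKO UIR 1 or PTCKO UIR 3 (0.66 to 0.68). C3ar1 lost it without WT UIR 1 or 3 or PTCKO UIR 1 or 3 (-0.80 to -0.54). C6 lost it without WT sham 1, WT UIR 1 or 3, PTCKO sham 1 or 3, or PTCKO UIR 1 or 3 (-0.66 to -0.43), and also with DESeq2 (-0.65). Thbd lost it without WT sham 2, WT UIR 1 or 3, any PTCKO sham library, or PTCKO UIR 1 or 3 (-0.53 to -0.40).

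Marker lists moved between the same groups. The 8 proximal tubule markers were all higher in PTCKO UIR than in WT UIR, with summed levels of 962 to 1596 against 309.5 to 651 FPKM. Of the 8 macrophage markers 3 were lower, with sums of 1847 to 2733 against 3025 to 4797, and of the 7 endothelial markers 6 were lower, with sums of 220.2 to 257 against 305 to 345. Of the 8 fibroblast markers 1 was lower, with sums of 675 to 735 against 863 to 1073, without overlap. Of the 7 T and B cell markers 3 were higher, with overlapping sums of 40.1 to 56.2 against 31.9 to 42.7. Of the 8 tested hepatocyte markers 2 (Apoh and Apoa2) were higher, with sums of 89.2 to 161 against 99.0 to 138. Their part in the genotype differences was not tested.

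**Figure D5:**
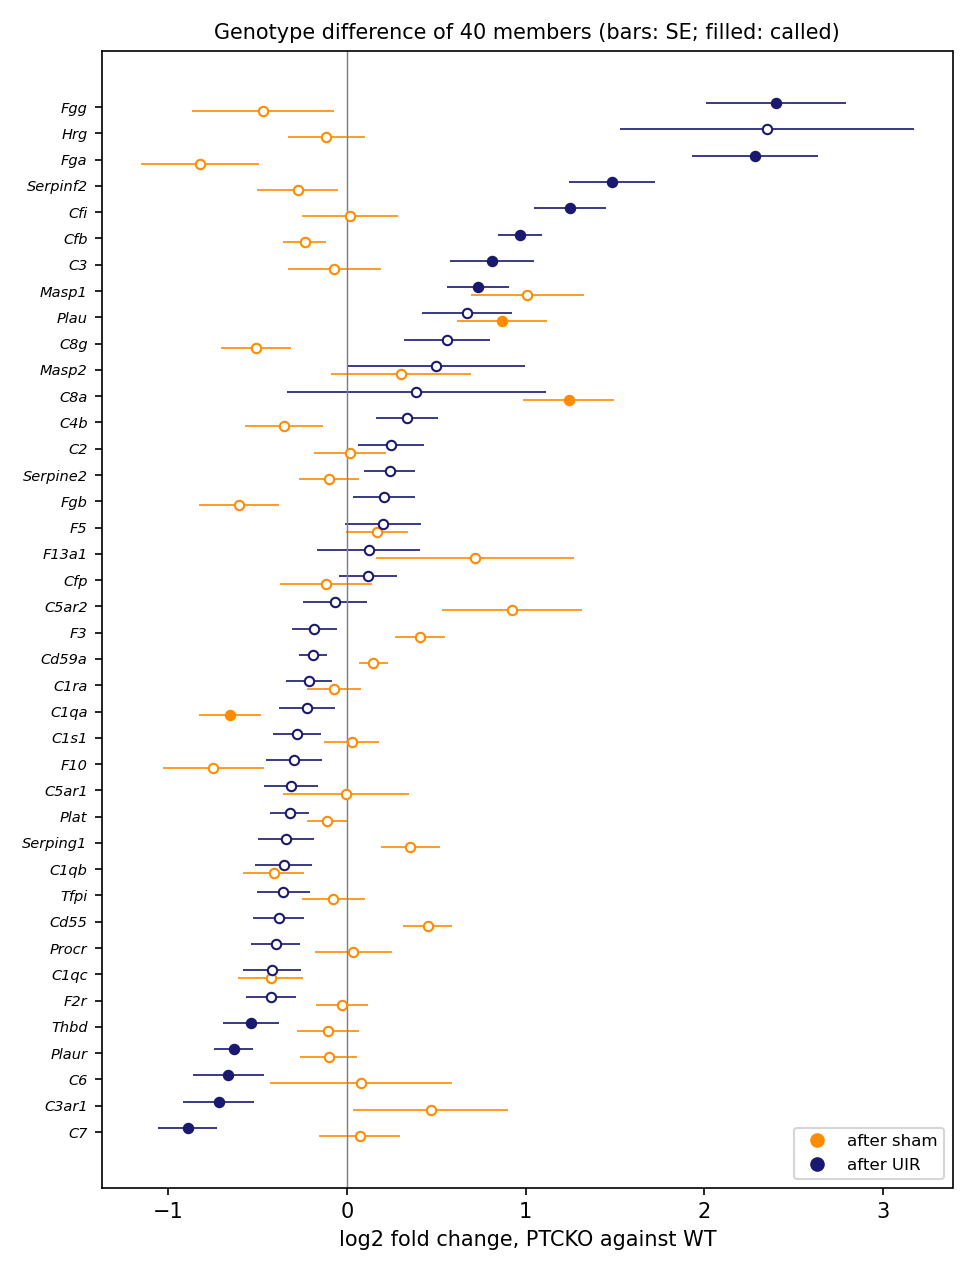
Log2 fold change of PTCKO against WT after sham (orange) and after UIR (blue) for 40 tested members, F7 left out, ordered by the value after UIR. Points are edgeR estimates with SE bars, filled where called, and the filled blue points run from C7 at -0.89 to Fgg at 2.40.

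The last test was of the difference itself, the UIR effect in PTCKO minus that in WT, which uses all 12 libraries and so shares libraries with the comparisons above. It was called for 10 members, 6 positive and 4 negative, against 14.4% positive and 7.08% negative of all genes (21.5% either way). Positive were Fga (log2 difference 3.11, SE 0.482, edgeR adjusted p = 0.00258), Fgg (log2 difference 2.87, SE 0.557, edgeR adjusted p = 0.00590), Serpinf2 (log2 difference 1.76, SE 0.328, edgeR adjusted p = 0.00510), Cfi (log2 difference 1.23, SE 0.336, edgeR adjusted p = 0.0225), Cfb (log2 difference 1.21, SE 0.173, edgeR adjusted p = 0.00190) and C8g (log2 difference 1.07, SE 0.309, edgeR adjusted p = 0.0287). Serpinf2, Cfb and C8g fell less in PTCKO than in WT, and Cfi rose more. Fga fell in WT and was not called in PTCKO, and Fgg fell in WT and rose in PTCKO. Negative were C7 (log2 difference -0.96, SE 0.280, edgeR adjusted p = 0.0293), Cd55 (log2 difference -0.84, SE 0.197, edgeR adjusted p = 0.0127), Serping1 (log2 difference -0.69, SE 0.229, edgeR adjusted p = 0.0470) and F3 (log2 difference -0.59, SE 0.188, edgeR adjusted p = 0.0414). C7, Serping1 and F3 rose less in PTCKO, and Cd55 fell more. For C8g, Cd55, Serping1 and F3, PTCKO was not called different from WT after sham or after UIR. Their log2 values after sham were -0.51, 0.45, 0.36 and 0.41, in that order. After UIR they were 0.56, -0.38, -0.34 and -0.18, so the sham libraries carry part of these differences.

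The calls for Fga, Fgg, Serpinf2, Cfb and Cd55 held when any 1 library was left out. Cfi lost its call without WT sham 1 or 3, WT UIR 1, PTCKO sham 1, or PTCKO UIR 1 or 3 (1.00 to 1.19). C7 lost it without WT sham 1, PTCKO sham 1 or 2, or PTCKO UIR 1 or 3 (-0.96 to -0.69). C8g lost it without WT sham 1 or 3, WT UIR 1 or 2, PTCKO sham 1 or 3, or PTCKO UIR 3 (0.80 to 1.06). Serping1 lost it without any 1 of 9 libraries, that is all but WT sham 2, WT UIR 2 and PTCKO UIR 2 (-0.74 to -0.56). F3 lost it without any 1 of 10 libraries, that is all but WT UIR 3 and PTCKO UIR 2 (-0.64 to -0.45). On TPM the split was 5 positive to 14 negative, and on log2(FPKM + 1) it was 6 to 11. The median difference of all genes was -0.28 and -0.14 in those fits, against -0.0015 in the main fit. Over all genes, 2203 differences were positive and 1085 negative, against 1218 and 2579 without scaling factors.

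A wider list of 64 other complement and coagulation genes, of which 48 were tested, gave the surroundings of these members. In WT 28 rose and 15 fell with UIR (78.6% of all genes called either way), and in PTCKO 25 rose and 15 fell (73.8%). Among those with the smallest p, Colec12, a collectin, was at 2.91, 2.97 and 1.88 across WT sham, 2.94, 3.13 and 2.74 across PTCKO sham, 41.8, 38.0 and 43.1 across WT UIR and 34.1, 37.6 and 33.8 across PTCKO UIR, and every UIR library was above every sham library. It rose 9.70-fold in WT and 8.38-fold in PTCKO, and Pros1, protein S, rose 5.05-fold in PTCKO. C1rl, a protease related to C1r, fell 9.86-fold in WT. After sham, 2 were higher in PTCKO and 2 lower, against 10.7% of all genes called either way. F8, factor VIII (log2 0.54), was among the higher, and Mbl1, a mannose-binding lectin (-0.98), and Gas6, a vitamin K-dependent ligand (-0.36), were lower.

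After UIR, 9 of the 48 were higher in PTCKO and 8 lower, against 9.3% higher and 4.5% lower of all genes. C1rl was at 1.86, 2.18 and 1.87 across WT UIR and 4.13, 3.53 and 3.72 across PTCKO UIR (log2 fold change 1.01, SE 0.110, edgeR adjusted p = 4.43e-04). Serpina10, an inhibitor of factor Xa, was at 0.21, 0.27 and 0.04 across WT sham, 0.20, 0.54 and 0.20 across PTCKO sham, 27.4, 26.7 and 24.1 across WT UIR and 58.9, 42.3 and 69.8 across PTCKO UIR, and its WT UIR and PTCKO UIR libraries did not overlap (log2 fold change 1.20, SE 0.190, edgeR adjusted p = 0.00185). Proc, protein C, and Cpn1, the carboxypeptidase that inactivates C3a and C5a, were 2.17-fold and 2.35-fold higher. The difference in UIR effect was positive for 9 and negative for 7 of the 48, against 14.4% and 7.08% of all genes. The named genes were Mbl1 (2.86), C1rl (1.06), F8 (-1.08) and Cpn1 (1.66), each as a log2 difference.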

How the data were processed

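RNA-seq of 12 kidney libraries was used, placed in 4 groups by their titles. For the upstream steps the submitters' processing notes list RSEM, Bowtie2 and DESeq2 with the build GRCm38.p6, and no versions. The authors deposited expected counts, FPKM and TPM per gene and library, per the file headers and processing notes. In FPKM and TPM the authors corrected for the length of transcripts and the size of the library. Strand use in counting was not stated. RSEM shares reads that match several genes between those genes by estimate.

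Expected counts were rounded and fitted in edgeR 4.0.16 (R 4.3.3, quasi-likelihood) after filterByExpr (15322 of 18803 genes) and TMM scaling, with 1 coefficient per group, all 12 libraries and 8 residual degrees of freedom. P-values were two-sided and adjusted by Benjamini-Hochberg over all genes, with calls under 0.05. The test was tried on simulated counts. Alternatives were no scaling, no filter, DESeq2 1.42.0, limma 3.58.1 on log2(FPKM + 1), log2(FPKM + 0.1) and log2(TPM + 1) of genes with at least 1 in 3 libraries, the groups compared alone, a replicate block and leaving out each library. Members and lists were chosen with earlier results of these data known. All members are accounted for. Other pathway genes named were the 4 with the smallest p among those called in each comparison, where the higher group averaged 1 FPKM or more, and some genes that this rule named are not reported here. Folds against groups at 0 counts use a floor of 3 counts per library and cover counting error only. RefSeq coordinates matched all 46 members and 18747 of 18803 genes (99.7%).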

Additional observations from a re-analysis of the deposited data

Results flagged for a closer look

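The effect of UIR was called different between the genotypes by the interaction term of edgeR for 10 of the 41 tested members. This is near the share of all genes so called, 21.5%. The 10 members are listed here for that call, each as the log2 effect in PTCKO minus that in WT. The value was 3.11 for Fga, 2.87 for Fgg, 1.76 for Serpinf2, 1.23 for Cfi, 1.21 for Cfb and 1.07 for C8g. It was -0.96 for C7, -0.84 for Cd55, -0.69 for Serping1 and -0.59 for F3. No explanation was tested.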

How the results depend on the processing

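Of 4232 re-computed values, 114 gained a call, 120 lost one, 6 reversed and 3992 did none of these. Of those 3992, 142 had the opposite sign to the main value and were called in neither fit. The reversals were Plau with UIR in WT (0.011 on log2(TPM + 1)) and Cd59a with UIR in PTCKO (0.19 without scaling factors, 0.24 on log2(FPKM + 1) with or without the filter, 0.25 on log2(FPKM + 0.1) and 0.26 on log2(TPM + 1)), and their cause was not tested. The 3 members called between the sham groups became 6 without scaling factors, 5 with DESeq2, 5 on log2(FPKM + 1), 6 on log2(FPKM + 0.1), 7 on log2(TPM + 1) and 6 with only the groups compared. On log2(TPM + 1), 2597 of all genes were called there instead of 1645. The 10 members called for a difference in UIR effect became 17 on log2(FPKM + 1) and 19 on log2(TPM + 1). In the same fits the median difference of all genes moved from -0.0015 to -0.14 and -0.28. Of the calls with UIR, those of Cd55 (-0.21), Fgg (-0.70) and Plau (-0.16) in WT were lost without scaling factors and in every limma fit, that of Plau in PTCKO in every limma fit (-0.54 to -0.52), and none by leaving out a library. After UIR, C3 also lost its genotype call without scaling factors (0.75), on log2(FPKM + 0.1) (0.75), on log2(TPM + 1) (0.70) and on FPKM without the filter (0.75). C6 lost it with DESeq2 (-0.65), with only the groups compared (-0.67), on log2(FPKM + 0.1) (-0.67) and on FPKM without the filter (-0.60). On log2(FPKM + 0.1) so did C3ar1 (-0.77) and Masp1 (0.65), and with only the groups compared Thbd (-0.54). C1qa after sham was not called without scaling factors (-0.52) or on FPKM without the filter (-0.49), nor was the C8g difference on log2(TPM + 1) (0.56) or on FPKM without the filter (0.66).

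Leaving out 1 library left 40 members called with UIR in each genotype, 0 to 5 between the sham groups, 7 to 18 between the UIR groups and 5 to 13 for the difference in UIR effect. Over all genes these counts were 11523 to 12216, 10675 to 11494, 430 to 2183, 904 to 3321 and 1743 to 4565. Replicate numbers gave no clear sign of pairing. Of 18 pairs with the same number, 2 had a correlation over 0.1 (-0.0856 to 0.165), and 4 of 12 libraries correlated best with their own number. At 3 libraries per group, this check cannot show that pairing is absent. With a replicate block, 40 members were called with UIR in WT, 40 in PTCKO, 4 between the sham groups, 10 between the UIR groups and 9 for the difference. Under it Plau after sham (0.85), C6 (-0.64) and C3ar1 (-0.72) after UIR and the Serping1 difference (-0.71) were no longer called. Levels near 0, as for Hc, F2, Plg and Vsig4, are limited by depth.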
